A study of Homo sapiens with 11 samples.

Results

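The cells described here are cardiomyocytes, grown from the human embryonic stem cell line H9, that carried transcripts of both *TBX3* and *RSPO3*. They were chosen by their counts: a droplet barcode had to hold 1000 or more unique molecular identifiers (UMIs, each counting 1 captured transcript), 500 or more genes, at most 30% mitochondrially encoded UMIs and at least 0.15% of its UMIs in *TNNT2* and *MYH6*, and among these cardiomyocytes the members had 1 or more *TBX3* UMI and 2 or more *RSPO3* UMIs. The rule found 3020 members among 13426 cardiomyocytes, out of 17346 barcodes listed in the first run of each group. Of the other cardiomyocytes, 3635 had no UMI of either gene and served as the comparison, called double-negative cells below. Since *TBX3* and *RSPO3* chose the cells, their own levels are a description and were not tested.

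Single-cell 3' RNA sequencing covered 3 groups, all collected on day 42.5. They were stable chambered cardioids treated with PD173074, an inhibitor of fibroblast growth factor (FGF) receptors, the same cardioids without PD173074, and cardiac tissue grown as a flat 2D culture. Every group came from H9, and the labels name neither the period nor the dose of PD173074, nor which chemistry version (v2 or v3) made which library. The 3 groups had 3, 5 and 3 libraries, but the libraries of a group shared 99.3% to 99.9% of their barcodes and the UMI totals of the shared barcodes, on a log10 scale, correlated at 0.998 or above (rounded), so they were read as repeat runs of the same droplets. Each group is therefore 1 sample, no difference between groups has a replicate check, and no p-value is given. Barcodes shared between groups stayed at or below 0.737%, and 1 member barcode in all occurred in 2 groups.

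The atrioventricular canal is the stretch of embryonic heart between atria and ventricles, where slow conduction and cushion formation take place. *TBX3* and *TBX2* are T-box repressors that keep the chamber muscle programme off there, downstream of BMP2, and *MSX2* is a homeobox gene that responds to the same signal. *RSPO3* encodes a secreted R-spondin, which binds LGR receptors, holds off the ubiquitin ligases RNF43 and ZNRF3 and so strengthens WNT signalling. *TBX3* is also used by the sinus node, where *SHOX2*, *ISL1* and *HCN4* accompany it.

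Promoter sequences are shown for *RSPO3*, since it defines the cells, and for 4 genes in which the T-box core GGTGTGA (read on either strand, TCACACC on the other) lay in the 300 bases around the gene start, from 250 before to 50 after it. They are credited to RefSeq on GRCh38.p14, written 5′ to 3′ on the gene's strand, with the core in capitals. The *RSPO3* stretch is the 100 bases before the start at chr6:127118571-127118670 on the plus strand, which held no core. The *GCNT1* core lay at positions 6 to 12 after the start (chr9:76459176-76459204, plus strand). The *RGS6* core spanned -3 to 4 (chr14:71933208-71933236, plus strand), the *PAM* core -245 to -239 (chr5:102754533-102754569, plus strand) and the *WNT5A* core -223 to -217 (chr3:55487498-55487554, minus strand).
RSPO3: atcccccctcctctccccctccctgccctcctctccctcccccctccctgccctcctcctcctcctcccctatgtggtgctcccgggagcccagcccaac
GCNT1: cgggccacgctGGTGTGAgggctgcaggc
RGS6: ctgggtttctgGGTGTGAagcgcacaccg
PAM: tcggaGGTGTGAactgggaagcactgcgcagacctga
WNT5A: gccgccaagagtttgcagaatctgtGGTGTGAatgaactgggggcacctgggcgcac

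The members made up 188 of 3385 cardiomyocytes in cardioids with PD173074 (5.55%, exact 95% binomial interval 4.81% to 6.38%), 1356 of 3082 in cardioids without PD173074 (44.0%, 42.2% to 45.8%) and 1476 of 6959 in 2D culture (21.2%, 20.3% to 22.2%). These intervals, like all others below, cover counting error only. The 2 genes had the same order over the groups but differed in the size of the steps. *TBX3* was seen in 27.6% of cardiomyocytes with PD173074, 54.0% without PD173074 and 30.2% in 2D culture, whereas 2 or more *RSPO3* UMIs were seen in 16.8% with PD173074, 67.3% without PD173074 and 60.2% in 2D culture. The groups differ in depth. In cells thinned to 2000 UMIs, *TBX3* was seen in 10.3%, 33.4% and 15.3% in the same order of groups. The shares with 2 or more *RSPO3* UMIs were then 5.05%, 48.4% and 37.1%. Cells with *TBX3* but no *RSPO3* UMI numbered 626 with PD173074, 187 without PD173074 and 353 in 2D culture. Cells with 2 or more *RSPO3* but no *TBX3* UMI numbered 381 with PD173074, 718 without PD173074 and 2715 in 2D culture. The remaining cardiomyocytes had a single *RSPO3* UMI and enter no class.

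The members were deeper than the double-negative cells in every group. Members had a median of 9034.5 UMIs against 5309.5 with PD173074, 6054 against 3791 without PD173074 and 5773 against 3554.5 in 2D culture. Within each band of UMIs per cell the order of the groups was the same: among cells of 5000 to below 8000 UMIs, members were 4.54% with PD173074, 52.7% without PD173074 and 26.1% in 2D culture. When every cell was thinned to 2000 UMIs, the shares were 0.514% of 3111 cells with PD173074, 21.4% of 2916 without PD173074 and 6.78% of 6444 in 2D culture, with 274, 166 and 515 shallower cells left out. A share is thus a matter of depth in each group, while its order over the groups held at each depth examined.

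**Figure D1:**
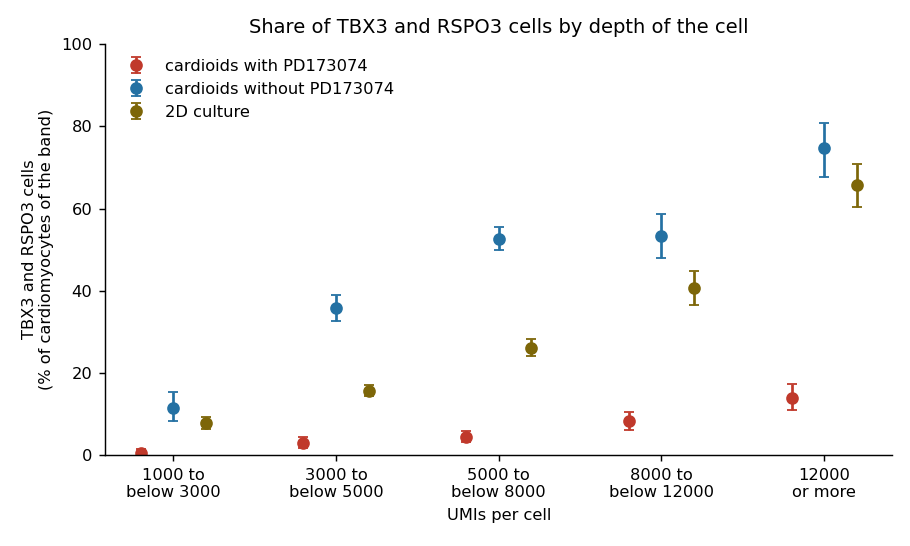
Share of cardiomyocytes that met the *TBX3* and *RSPO3* rule, in percent, by the number of UMIs per cell, for the 3 groups, with exact 95% binomial intervals as bars. At 12000 or more UMIs the share was 13.9% with PD173074, 74.7% without PD173074 and 65.8% in 2D culture, and at 1000 to below 3000 UMIs it was 0.538%, 11.5% and 7.86%.

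Free RNA in droplet libraries can place a UMI in a cell that does not make it, so the rule was also applied to other barcodes. Barcodes under the *TNNT2* and *MYH6* limit met it in 2.98% of 1241 cells with PD173074 (median 8591 UMIs), 6.60% of 485 without PD173074 (5520 UMIs) and 7.23% of 1245 in 2D culture (6461 UMIs). The medians of all cardiomyocytes were 6201 UMIs with PD173074, 5374 without PD173074 and 4298 in 2D culture. Cardiomyocytes with 3 or more UMIs of the ventricular light chain gene *MYL2* met it in 0 of 6 cells with PD173074, in 5 of 22 without PD173074 (22.7%, median 7130.5 UMIs) and in 9 of 173 in 2D culture (5.20%, 5694 UMIs). A *TBX3* UMI was held by 33.1% of barcodes under the limit with PD173074, 31.3% without PD173074 and 15% in 2D culture. Free RNA and transcripts of these cells themselves cannot be told apart here, so how well these barcodes serve as background is not known. The part of free RNA in the members' shares was not tested.

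How far a member lay above the limits differed between groups. The median member had 1 *TBX3* and 3 *RSPO3* UMIs with PD173074, 2 and 9 without PD173074, and 1 and 6 in 2D culture. Exactly 1 *TBX3* and 2 *RSPO3* UMIs, the smallest counts the rule admits, were held by 25% of members with PD173074, 3.61% without PD173074 and 11.3% in 2D culture. At the other end, 10 or more *RSPO3* UMIs were held by 7.45% of members with PD173074, 44.5% without PD173074 and 26.8% in 2D culture. Summed over all members and scaled by their total UMIs to CPM, *TBX3* stood at 133 CPM with PD173074, 447 CPM without PD173074 and 216 CPM in 2D culture, and *RSPO3* at 417 CPM with PD173074, 1447 CPM without PD173074 and 1040 CPM in 2D culture. In *BMP2*, cells just inside and just outside the rule stood as follows. Without PD173074 the level was 383 CPM in cells of 1 *TBX3* and 2 *RSPO3* UMIs, 339 CPM in cells 1 *RSPO3* UMI short and 327 CPM in cells that lacked the *TBX3* UMI. In 2D culture these levels were 352, 336 and 338 CPM, and with PD173074 they were 114, 103 and 78.4 CPM.

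The repeat runs show how many members another reading of the same droplets returns. Of the first run's members, 51.1% to 58.0% met the rule again in the other runs with PD173074. Without PD173074 this share was 81.7% to 82.7% in 3 runs and 56.1% in run 3, the shallowest, and in 2D culture it was 58.4% to 58.5%. Read in the second run, which did not choose them, the members still held more *TBX3* than the double-negative cells: 111 against 16.4 CPM with PD173074, 422 against 29.8 CPM without PD173074 and 164 against 29.7 CPM in 2D culture. *RSPO3* in that run stood at 394 against 17.7 CPM with PD173074, 1447 against 56.6 CPM without PD173074 and 1013 against 106 CPM in 2D culture. These runs share molecules with the first and are no independent sample.

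The 3 other genes that were to mark these cells did not all do so. *TENM2*, which encodes a teneurin adhesion protein, stood at 263 CPM in members and 82.3 CPM in double-negative cells without PD173074, a log2 ratio of 1.67 (95% interval 1.46 to 1.90). It stood at 116 against 73.6 CPM with PD173074 (log2 ratio 0.65) and at 63.2 against 35.9 CPM in 2D culture (0.82). *PTGER3*, a prostaglandin E2 receptor gene, was higher in members by log2 ratios of 0.99 with PD173074 (25.3 against 12.8 CPM), 1.5 without PD173074 (122 against 43.2 CPM) and 1.02 in 2D culture (38.3 against 18.9 CPM). *NEFM*, which encodes the medium neurofilament chain, did not separate the members in any group: it stood at 2.62 against 2.78 CPM with PD173074, 63.2 against 66.8 CPM without PD173074 and 44.3 against 37.6 CPM in 2D culture. Its log2 ratios of -0.08 with PD173074 (-1.64 to 1.20), -0.08 without PD173074 (-0.34 to 0.19) and 0.23 in 2D culture (-0.01 to 0.48) all had intervals that hold 0. *NEFM* followed the group instead, since it was near its floor in every class of cell with PD173074. Because of *NEFM*, and because members with PD173074 differ in the ways described below, the cells are called by their rule, as *TBX3* and *RSPO3* cells.

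For the comparison across all genes, a gene was taken as higher or lower when it reached 20 CPM in the higher set and the whole exact 95% interval of the ratio lay beyond 2-fold. With PD173074, 69 of 7968 genes were higher in members (0.866%) and 13 were lower (0.163%). Without PD173074, 40 of 8140 genes were higher (0.491%) and 139 lower (1.71%), and in 2D culture 18 of 7887 genes were higher (0.228%) and 30 lower (0.38%). Gene lists were read with a wider net, 10 CPM and 1.5-fold, which 1.95% of genes passed upward and 0.442% downward with PD173074, 1.53% and 2.87% without PD173074, and 0.788% and 0.981% in 2D culture. The median log2 ratio of all genes tested there was 0.05, 0.05 and 0.09 in the same order of groups. Only 1 gene was higher beyond 2-fold in all groups, *FN1*, which was not higher once cells with stromal or epithelial transcripts were left out, and 3 were lower in all, *FGF12*, *TAGLN* and *LINC01182*. The cardioids without PD173074 and the 2D culture shared 7 higher genes (*ALK*, *BMP2*, *CADM2*, *CDH10*, *FN1*, *JCAD* and *RERGL*) and 22 lower ones. That is 7 of 40 and 7 of 18 of the higher genes, and 22 of 139 and 22 of 30 of the lower ones.

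*BMP2*, the canal's ligand, was higher beyond 2-fold in members without PD173074 and in 2D culture. It stood at 731 CPM in members and 162 CPM in double-negative cells without PD173074, a log2 ratio of 2.18 (2.03 to 2.33). In 2D culture it stood at 478 against 198 CPM (1.28, 1.18 to 1.37), and with PD173074 at 125 against 90 CPM (0.47, 0.28 to 0.67). Under the other scalings, in runs 2 and 3, at matched depth and without cells of stromal or epithelial UMIs, the ratio without PD173074 stayed between 2.12 and 2.39. Its ratio against all other cardiomyocytes is not given here. Against those cells no gene was higher beyond 2-fold in members of 2D culture, *BMP2* included. Read per cell at a common 2000 UMIs, *BMP2* was detected in 67.0% of members and 21.7% of double-negative cells without PD173074, in 55.5% and 29.2% in 2D culture, and in 15.5% and 13.1% with PD173074.

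*MSX2* followed with 431 against 143 CPM without PD173074 (log2 ratio 1.59, 1.43 to 1.76), 321 against 237 CPM in 2D culture (0.44, 0.35 to 0.54) and 99.2 against 60.1 CPM with PD173074 (0.72, 0.50 to 0.94). *TBX2* was less abundant: 99.0 against 57.0 CPM without PD173074 (0.80), 94.8 against 62.2 CPM in 2D culture (0.61) and 61.2 against 49.2 CPM with PD173074 (0.32). A member with UMIs of all of *BMP2*, *MSX2* and *TBX2* was far more frequent than a double-negative cell with all of them, at 11.2% against 1.86% with PD173074, 36.1% against 3% without PD173074 and 34.6% against 6.98% in 2D culture, though members are also deeper. The list of 17 transcription factors of canal and nodes had no common direction. Without PD173074, 2 of 14 measured members passed 1.5-fold upward (*MSX2* and *ID2*) and 2 downward (*SHOX2* and *ISL1*), with a median log2 ratio of 0.03, and no member passed in either direction with PD173074 (14 measured, median 0.18) or in 2D culture (12 measured, median 0.04).

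Genes of the cardiac jelly, the matrix from which cushions form, went with *BMP2* in part. *HAS2*, the hyaluronan synthase of the embryonic heart, stood at 211 against 43.6 CPM without PD173074 (2.28, 1.98 to 2.58), 121 against 54.2 CPM in 2D culture (1.16, 0.97 to 1.35) and 28.8 against 18 CPM with PD173074 (0.68, 0.26 to 1.09). *VCAN*, which encodes the proteoglycan versican, stood at 2255 against 1145 CPM without PD173074 (0.98), 2562 against 2009 CPM in 2D culture (0.35) and 431 against 424 CPM with PD173074 (0.02). Of the list of jelly and matrix genes, 3 of 23 measured were higher and 7 lower without PD173074, with a median of -0.13. Without PD173074, most of the measured matrix genes thus did not share the direction of *HAS2* and *VCAN*. The list median was 0.18 in 2D culture and 0.11 with PD173074. Without cells of stromal or epithelial UMIs it was 0.13 in 2D culture and -0.53 with PD173074.

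BMP response genes leaned to the same side as *BMP2*, while BMP ligands and antagonists were divided. The response list had a median of 0.64 without PD173074, with *ID2*, *ID4* and *MSX2* higher and none lower of 11 measured. Its medians were 0.44 in 2D culture (0 and 0 of 11) and 0.36 with PD173074 (1 higher of 11). Without cells of stromal or epithelial UMIs the median with PD173074 was 0.16. The list of ligands and antagonists had medians of 0.04 with PD173074, -0.04 without PD173074 and 0.55 in 2D culture. *ID4*, an inhibitor of helix-loop-helix factors, stood at 1481 against 630 CPM without PD173074 (1.23), 987 against 652 CPM in 2D culture (0.60) and 347 against 169 CPM with PD173074 (1.04). *BMP4* went the other way: 1.20 CPM in members against 42.7 CPM in double-negative cells without PD173074 (-5.16), while it was at 71.7 against 74.9 CPM with PD173074 and near 1 CPM in both classes in 2D culture. *BMP7*, another ligand gene, was higher in members without PD173074 (29.9 against 10.2 CPM, 1.54), and *SMOC1*, which encodes a BMP antagonist, was lower (4.19 against 14.7 CPM, -1.81).

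**Figure D2:**
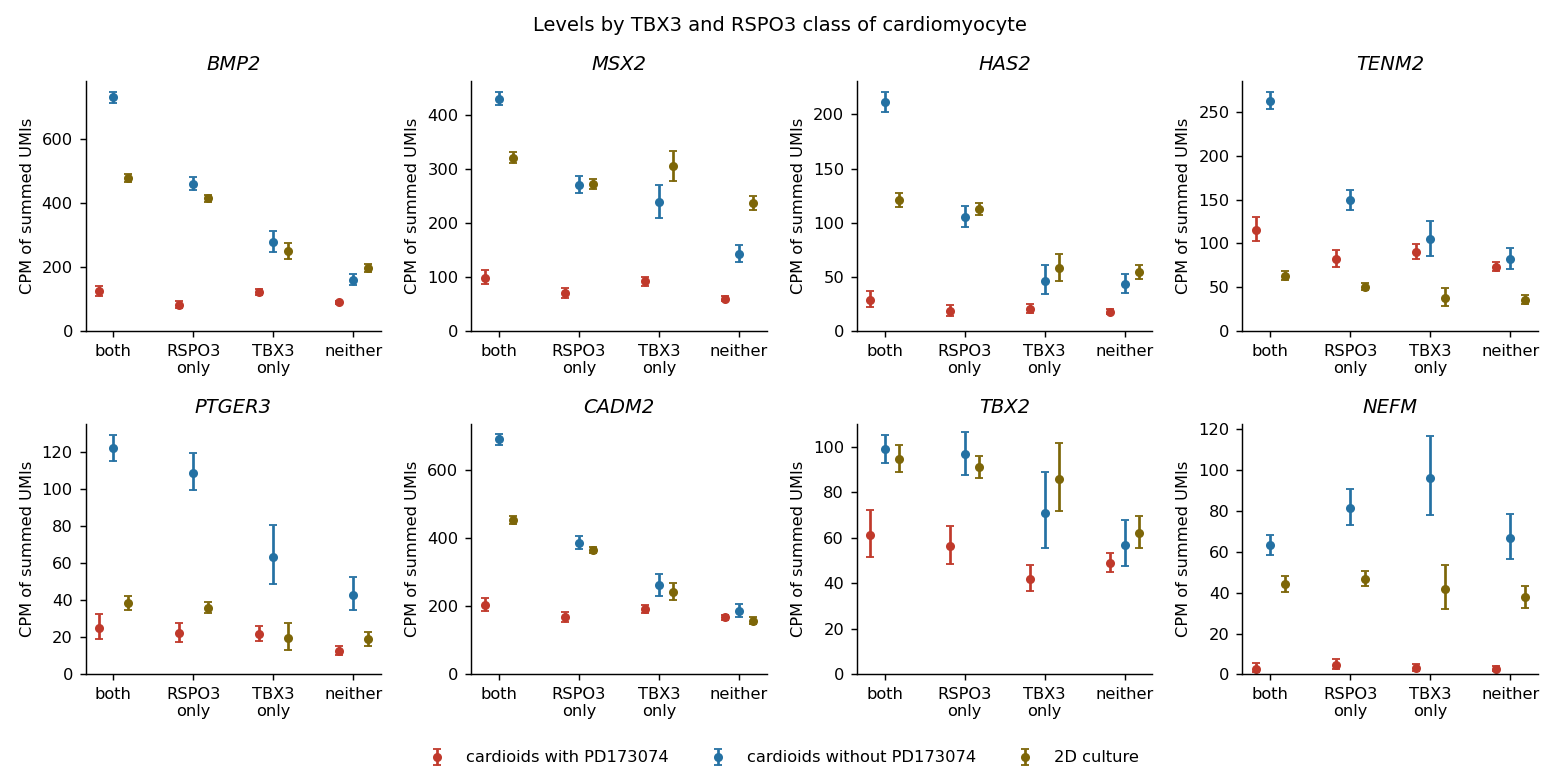
Levels of 8 genes, as CPM of summed UMIs, in cardiomyocytes with both *TBX3* and *RSPO3*, *RSPO3* only, *TBX3* only or neither, for the 3 groups, with exact 95% Poisson intervals as bars. *BMP2*, *HAS2* and *CADM2* descend over the classes without PD173074 (for *BMP2* 731, 461, 279 and 162 CPM), while *NEFM* shows no such descent and lies near 0 with PD173074.

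Cells with UMIs of a single gene of the pair lay between in *BMP2* without PD173074 and in 2D culture. Without PD173074, *BMP2* stood at 731 CPM in members, 461 CPM with *RSPO3* only, 279 CPM with *TBX3* only and 162 CPM with neither, and in 2D culture at 478, 415, 251 and 198 CPM. With PD173074 it stood at 125, 83.4, 121 and 90 CPM in the same order of classes. *HAS2* had 211, 106, 46.0 and 43.6 CPM without PD173074, so *TBX3* alone went with no more *HAS2* than neither gene. *RSPO3* cells without *TBX3* were close to members: 15 genes differed beyond 2-fold without PD173074 (0.189%), and 1 in 2D culture (0.0128%), *ANKRD1*, which was lower in members by a log2 ratio of -1.34. *TBX3* cells without *RSPO3* differed from members in 83 genes without PD173074 (1.02%) and 24 in 2D culture (0.302%). With PD173074 the corresponding counts were 56 against *RSPO3* only (0.704%) and 50 against *TBX3* only (0.627%). A *TBX3* count of 0 in a shallow cell can be a missed transcript, and that was not tested here.

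WNT signalling genes gave no common direction. *LGR4*, an R-spondin receptor gene, was lower in members of every group: 157 against 275 CPM with PD173074 (-0.81, -0.97 to -0.65), 64.4 against 221 CPM without PD173074 (-1.78, -1.95 to -1.61) and 59.4 against 144 CPM in 2D culture (-1.28, -1.43 to -1.12). *RSPO3* cells without *TBX3* had 185 CPM of *LGR4* with PD173074, 79.0 CPM without PD173074 and 61.7 CPM in 2D culture, close to the members. *TBX3* cells without *RSPO3* had 245 CPM with PD173074, 114 CPM without PD173074 and 130 CPM in 2D culture. *RSPO2*, the second R-spondin, was higher: 10.9 against 7.31 CPM with PD173074 (0.58), 65.6 against 32.9 CPM without PD173074 (0.99) and 104 against 46.4 CPM in 2D culture (1.17). *AXIN2*, a general WNT target, had log2 ratios of -0.04 with PD173074, -0.44 without PD173074 and 0.38 in 2D culture. The ligase gene *RNF43* had 0.17, -0.42 and -0.02 in that order of groups, and *ZNRF3* had -0.09, 0.06 and 0.37. The WNT target list had 1 higher and 1 lower of 10 measured with PD173074 (median 0.01), 1 higher and 2 lower of 9 without PD173074 (-0.42), and none of 7 in 2D culture (0.25). *FZD1*, a WNT receptor gene, was lower in members at 25.9 against 69.0 CPM without PD173074 (-1.42) and 12.7 against 45.6 CPM in 2D culture (-1.84), and not with PD173074 (69.0 against 73.3 CPM). *WNT5A*, a ligand of noncanonical signalling, stood at 4.29 against 21.4 CPM without PD173074 (-2.31).

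**Figure D3:**
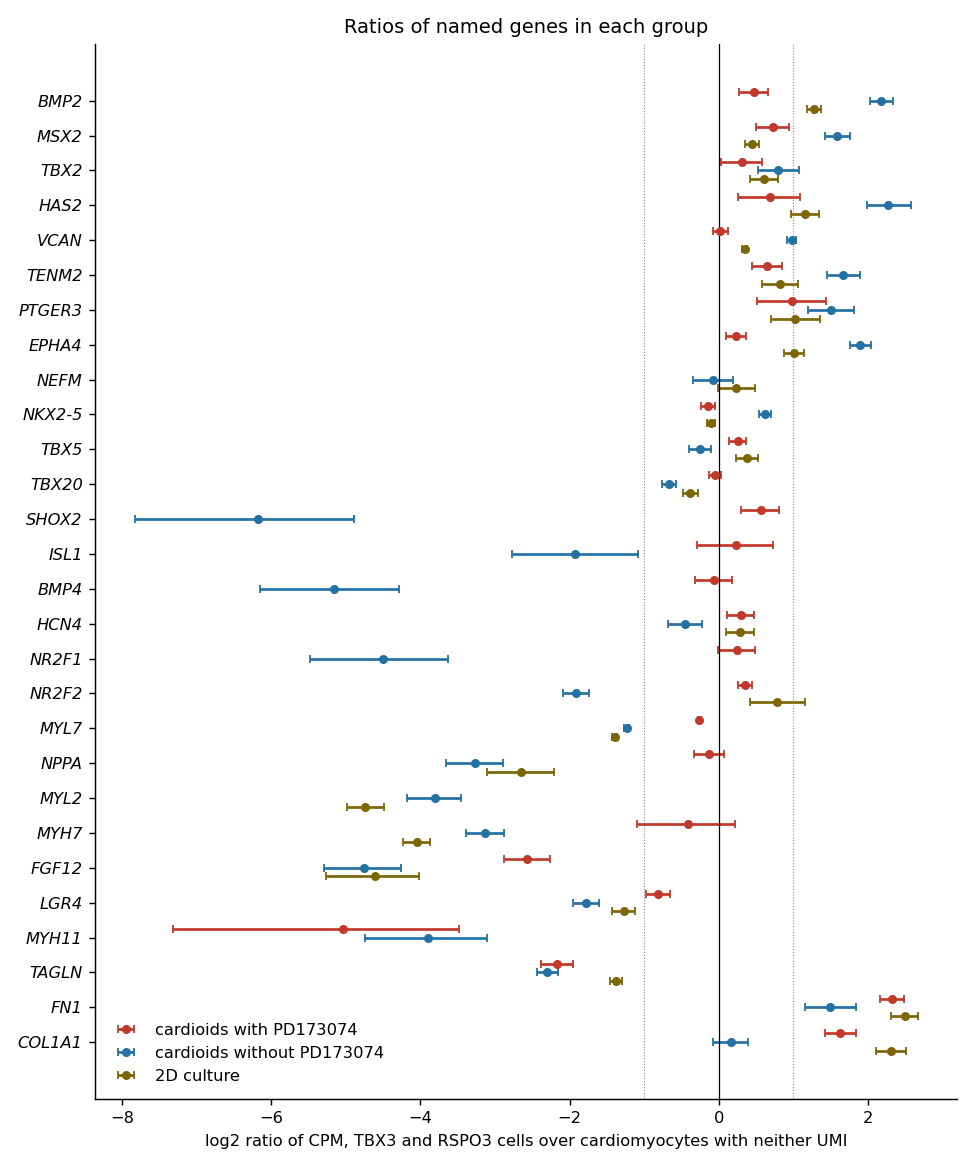
Log2 ratio of CPM in *TBX3* and *RSPO3* cells over cardiomyocytes with neither UMI, for named genes in the 3 groups, with exact 95% intervals as bars and dotted lines at 2-fold. *BMP2* (0.47 with PD173074, 2.18 without, 1.28 in 2D culture) lies right of 0, and *SHOX2* (-6.17), *NPPA* and *MYL2* lie left of it without PD173074. A gene is drawn for a group only where it reached 10 CPM.

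Sinus node genes set the members of the cardioid groups apart. *SHOX2* stood at 73.4 against 49.7 CPM with PD173074 (0.56, 0.30 to 0.82) and at 0.499 against 36.0 CPM without PD173074 (-6.17, -7.83 to -4.89), with 0.0898 against 0.195 CPM in 2D culture. In cells, *SHOX2* was seen in 26.6% of members and 10.8% of double-negative cells with PD173074, in 4 of 1356 members (0.295%) against 7.88% without PD173074, and in 1 of 1476 against 1 of 1332 in 2D culture. These shares were not thinned, and members are deeper. *ISL1* stood at 18.4 against 15.6 CPM with PD173074, 2.80 against 10.7 CPM without PD173074 and 0.718 against 1.37 CPM in 2D culture. The pacemaker channel gene *HCN4* was less divided, at 143 against 117 CPM with PD173074 (0.29), 68.2 against 93.5 CPM without PD173074 (-0.45) and 77.1 against 63.2 CPM in 2D culture (0.29). Without PD173074 the members were thus *TBX3* cells nearly free of *SHOX2*, and with PD173074 they were not.

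Some chamber genes were lower in members without PD173074 and in 2D culture, and the part of *TBX3* in this was not tested. *NPPA*, which encodes the atrial natriuretic peptide, stood at 8.69 against 83.7 CPM without PD173074 (-3.27, -3.65 to -2.90) and 5.12 against 32.2 CPM in 2D culture (-2.65), but 112 against 123 CPM with PD173074 (-0.13). In 2D culture 3 or more *NPPA* UMIs were held by 0.136% of members, 0.147% of *RSPO3* only, 1.13% of *TBX3* only and 1.13% of double-negative cells. Without PD173074 these shares were 0.664%, 0.696%, 1.07% and 4.13%. *GJA1*, the connexin gene of working muscle, was low throughout, and in 2D culture it stood at 3.77 against 16.8 CPM (-2.15). *NPPB* reached a level worth comparing in 2D culture alone, at 0.628 CPM in members, 165 CPM in *TBX3* only cells and 35.9 CPM in double-negative cells (-5.84). Of the 20 chamber genes, 3 of 16 measured were higher and 6 lower without PD173074 (median -0.37), 0 and 6 of 17 in 2D culture (-0.47), and 3 and 0 of 12 with PD173074 (0.04). *MB*, the myoglobin gene, was an exception at 1024 against 256 CPM without PD173074 (2.00), as were *IRX4*, a ventricular homeobox gene (96.2 against 46.3 CPM, 1.05), and *NKX2-5* (1009 against 655 CPM, 0.62).

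Among atrial genes, *NR2F1* and *NR2F2* encode the COUP factors of atrial identity. *NR2F2* stood at 486 against 380 CPM with PD173074 (0.35), 56.9 against 214 CPM without PD173074 (-1.91) and 26.6 against 15.4 CPM in 2D culture (0.79). *NR2F1* stood at 76.5 against 64.7 CPM with PD173074, 1.30 against 29.4 CPM without PD173074 (-4.50) and 0 against 0.390 CPM in 2D culture. *ALDH1A1*, a retinaldehyde dehydrogenase gene, stood at 37.1 against 69.2 CPM with PD173074 (-0.90) and 0.2 against 36.5 CPM without PD173074 (-7.51). Without PD173074, 7 of 13 atrial genes measured were lower and none higher (median -1.23). In 2D culture 1 was higher and 2 lower of 11 (0.12), and with PD173074 none of 12 passed (0.25). A UMI of *SHOX2*, *NR2F1*, *NPPA*, *MYL2* or *MYH11* was held by 68.6% of members against 45.8% of double-negative cells with PD173074, 8.33% against 30.8% without PD173074 and 11.3% against 17.3% in 2D culture. These shares were not thinned and members are deeper, so they do not show that members with PD173074 are richer in these genes. In CPM with PD173074, *SHOX2* and *NR2F1* stood higher in members, and *NPPA*, *MYL2* and *MYH11* lower. With such double-negative cells without PD173074 taken out of the comparison, 96 genes were beyond 2-fold in place of 179, an alternative chosen after seeing the data.

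*MYL2* and *MYH7*, ventricular myosin genes, were lower in members without PD173074 and in 2D culture. Of the ventricular list, 2 of 8 measured genes were higher and none lower with PD173074 (median 0.05), 3 of 14 higher (*IRX4*, *MASP1* and *FHL2*) and 2 lower without PD173074 (0.26), and none of 14 higher and 2 lower in 2D culture (-0.24). In 2D culture *MYL2* stood at 13.2 CPM in members, 26.8 CPM in *RSPO3* only cells, 220 CPM in *TBX3* only cells and 352 CPM in double-negative cells (-4.74, -4.99 to -4.49). Without PD173074 it stood at 8.69, 10.7, 221 and 122 CPM (-3.81). *MYH7*, the slow myosin heavy chain gene, stood at 25.8 against 426 CPM in 2D culture (-4.05) and 18.5 against 162 CPM without PD173074 (-3.13). Both were scarce with PD173074, with *MYL2* at 0.874 against 3.43 CPM and *MYH7* at 10.5 against 13.9 CPM. *MYH7* and *MYH6* are neighbouring near-identical copies, and how the counting divided shared reads is not stated. In 2D culture low *MYL2* went with the *RSPO3* UMIs. There 3 or more *MYL2* UMIs were held by 0.610% of members, 0.994% of *RSPO3* only, 5.38% of *TBX3* only and 7.13% of double-negative cells. Without PD173074 these shares were 0.369%, 0.279%, 0.535% (1 of 187 cells) and 2.44%. The 221 CPM of *TBX3* only cells without PD173074 thus does not describe most cells of that class.

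Sarcomere genes had no common direction over the groups. *TNNT2*, which is part of the cardiomyocyte limit, had log2 ratios of -0.06 with PD173074, 0.25 without PD173074 and -0.29 in 2D culture, and *MYH6* had 0.25, -0.44 and 0.12. The atrial light chain gene *MYL7*, abundant in all, stood at 7076 against 8457 CPM with PD173074 (-0.26), 2262 against 5320 CPM without PD173074 (-1.23) and 1187 against 3119 CPM in 2D culture (-1.39). In 2D culture 10 of 28 sarcomere genes were lower and none higher (median -0.54), among them the cardiac actin gene *ACTC1* (1517 against 2859 CPM, -0.91), the troponin gene *TNNC1* (590 against 1249 CPM, -1.08) and *MYBPC3*, which encodes myosin-binding protein C (73.8 against 140 CPM, -0.93). Without PD173074 the count was 4 lower of 28 (-0.32), and with PD173074 2 were higher (-0.05), *MYL3* and *TNNI3*.

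*FGF12* and *TAGLN* were lower in members of every group. *FGF12*, an intracellular FGF homologue that modulates sodium channels, stood at 40.6 against 241 CPM with PD173074 (-2.57), 3.79 against 103 CPM without PD173074 (-4.76) and 2.24 against 54.8 CPM in 2D culture (-4.61). *TAGLN*, a smooth muscle and early heart gene, had log2 ratios of -2.17 with PD173074, -2.30 without PD173074 and -1.37 in 2D culture. *MYH11*, the smooth muscle myosin gene, stood at 1.31 against 43.1 CPM with PD173074 (-5.04) and 1.80 against 26.7 CPM without PD173074 (-3.89), and at 4.76 against 8.97 CPM in 2D culture, under the level compared there. Under the alternatives named for *BMP2*, *FGF12* stayed between -2.73 and -2.12 with PD173074, -5.17 and -4.77 without PD173074, and -5.46 and -4.63 in 2D culture.

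Neuronal adhesion and guidance genes were mixed. *EPHA4*, an ephrin receptor gene, stood at 724 against 194 CPM without PD173074 (1.90), 221 against 110 CPM in 2D culture (1.01) and 249 against 211 CPM with PD173074 (0.24). *CADM2*, a synaptic adhesion gene taken up after its values were seen, stood at 691 against 187 CPM without PD173074 (1.89), 455 against 159 CPM in 2D culture (1.52) and 205 against 168 CPM with PD173074 (0.29). Of the list, 4 of 31 measured genes were higher and 10 lower without PD173074 (median -0.23), 2 and 2 of 30 in 2D culture (0.31), and 2 and 2 of 32 with PD173074 (0.09). Of the 6 neurofilament and neuronal cytoskeleton genes measured without PD173074 and in 2D culture, and the 3 with PD173074, none passed.

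The widest ratios upward without PD173074 belonged to low genes. *CRHBP*, which encodes the corticotropin-releasing hormone binding protein, stood at 51.8 CPM in members, 13.5 CPM in *RSPO3* only, 18.2 CPM in *TBX3* only and 4.45 CPM in double-negative cells (3.54, 2.65 to 4.61). *GCNT1*, a glycosyltransferase gene, stood at 49.1, 12.6, 11.5 and 7.12 CPM (2.79, 2.07 to 3.60). Both were highest where both UMIs were present. *MASP1*, a complement protease gene, stood at 182, 182, 61.4 and 41.4 CPM (2.13), and so followed *RSPO3* alone. *JCAD*, a junctional gene taken up after its values were seen, stood at 256 against 59.2 CPM without PD173074 (2.11), 217 against 91.1 CPM in 2D culture (1.25) and 14 against 12.9 CPM with PD173074 (0.12).

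Notch and immediate early genes were lower in members without PD173074, and the difference from the other groups was not tested. *JAG1*, a Notch ligand gene, stood at 13.5 against 39.2 CPM (-1.54), *NOTCH3* at 3.49 against 11.1 CPM (-1.67), *HEY1* at 6.49 against 16.9 CPM (-1.38) and *HES4* at 9.09 against 27.1 CPM (-1.58), which makes 4 of 7 measured Notch genes lower and none higher. Of 20 immediate early genes 10 were lower (median -1.06), with *EGR1* at 56.3 against 174 CPM (-1.62) and *FOS* at 121 against 318 CPM (-1.40). These are genes that cells switch on within minutes of a stimulus. Cell cycle genes had no such shift: 0 were higher and 1 lower of 27 without PD173074, 0 and 0 of 23 in 2D culture, and 0 and 1 of 28 with PD173074.

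The T-box core stood in 1211 of 35116 RefSeq promoters (3.45%) and in 1148 of 27305 genes (4.2%). Without PD173074 it stood in 8 of the 100 lower genes that had a promoter entry (8%) and in 1 of 31 higher ones, *GCNT1*, whose sequence is printed above. The 8 were *CCN2*, *COL21A1*, *PAM*, *PDLIM3*, *RABGAP1L*, *RGS6*, *SH3KBP1* and *WNT5A*. *PAM*, a peptide-amidating enzyme gene of atrial muscle, stood at 288 against 748 CPM (-1.37), and *RGS6*, a regulator of G protein signals in nodal cells, at 65.9 against 187 CPM (-1.51). Neither was lower with PD173074, where *PAM* stood at 1286 against 921 CPM and *RGS6* at 421 against 333 CPM. No core was found among 44 higher and 7 lower genes with PD173074 or 10 higher and 18 lower genes in 2D culture. A match is a description of letters and no binding site.

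Markers of other cell types were summed in each class. The stromal list summed to 1179 CPM in members and 633 CPM in double-negative cells with PD173074, against 4952 CPM in barcodes below the cardiomyocyte limit. Without PD173074 the sums were 341 against 634 CPM (8900 CPM below the limit), and in 2D culture 736 against 396 CPM (16856 CPM). Epithelial markers summed to 384 against 140 CPM with PD173074, 116 against 156 CPM without PD173074 and 100.4 against 134 CPM in 2D culture. Of the stromal list 5 of 8 measured genes were higher in members with PD173074, 3 of 6 in 2D culture and none of 5 without PD173074, where 2 were lower. The 5 endothelial markers summed to 54.2 against 61.8 CPM with PD173074, 137.5 against 92.1 CPM without PD173074 and 170.3 against 118 CPM in 2D culture. Of these, *PECAM1* and *CDH5* had no UMI in members of any group, nor in double-negative cells without PD173074 and in 2D culture. No doublet caller was run, and the part of doublets or free RNA in these sums was not tested.

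**Figure D4:**
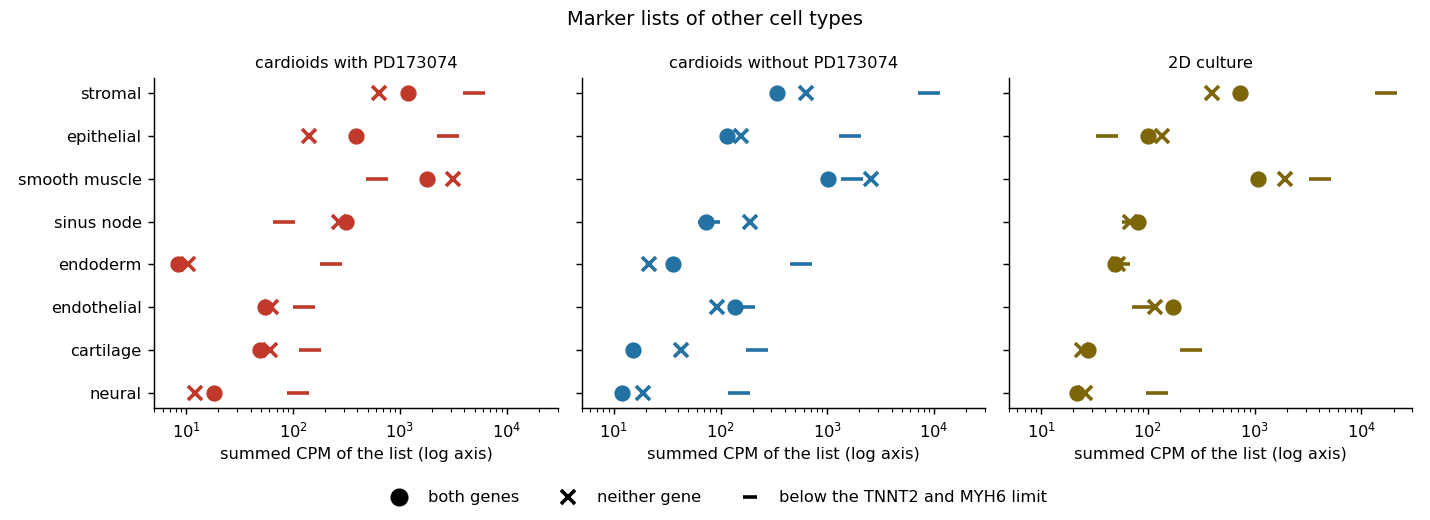
Summed CPM of 8 marker lists of other cell types, on a log axis, in *TBX3* and *RSPO3* cells, in cardiomyocytes with neither UMI and in barcodes below the *TNNT2* and *MYH6* limit, for each group. With PD173074 the members stood at 1179 CPM for stromal and 384 CPM for epithelial markers, right of the double-negative cells at 633 and 140 CPM, while without PD173074 they stood left of them.

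*FN1*, *COL1A1*, *ELN* and *COL8A1* were no longer higher beyond 2-fold in members once cells with stromal or epithelial transcripts were left out, while *HAS2* still had a log2 ratio of 2.38 without PD173074. *FN1*, which encodes fibronectin, stood at 276 against 55.1 CPM with PD173074 (2.32), 99.2 against 35.2 CPM without PD173074 (1.5) and 298 against 52.8 CPM in 2D culture (2.49). With cells of 5 or more stromal or 3 or more epithelial or endoderm UMIs left out of both sets, an alternative chosen after seeing the data, its log2 ratio was -0.53 with PD173074, -0.07 without PD173074 and -0.01 in 2D culture. Among cells of matched depth it was 0.75 with PD173074, -1.71 without PD173074 and 0.79 in 2D culture. *COL1A1*, a collagen gene that is itself in the stromal list, stood at 135 against 43.5 CPM with PD173074 (1.63) and 220 against 44.3 CPM in 2D culture (2.31), and without those cells at log2 ratios of -0.10 and 0.04. In 2D culture *ELN* (25.3 against 4.10 CPM, 2.63) and *COL8A1* (24.6 against 2.93 CPM, 3.07) had -2.29 and -1.12 without them. Members with 5 or more stromal UMIs were 38.3% against 21.9% of double-negative cells with PD173074, 6.34% against 11.6% without PD173074 and 12.4% against 5.71% in 2D culture.

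The same step was then applied to all genes. With PD173074 it left 109 of 188 members, and the genes beyond 2-fold then numbered 4 higher and 14 lower, in place of 69 and 13. Among cells of matched depth they numbered 23 higher and 14 lower. *GABRP* (150 against 19.6 CPM, 2.93), *LUM* (47.6 against 6.11 CPM, 2.96) and *KRT19* had log2 ratios of 0.33, 0.11 and -0.71 without those cells. *LRRTM3*, a synaptic adhesion gene, and *MYL3*, a ventricular light chain gene, were among the 4 that stayed higher, with 205 against 76.9 CPM and 82.1 against 23.1 CPM in all cells (1.41 and 1.83). Without PD173074 the same step left 1125 members, with 44 higher and 150 lower genes, and in 2D culture 1156 members, with 14 and 42. The log2 ratio of *BMP2* in the remaining cells was 0.15 with PD173074, 2.20 without PD173074 and 1.35 in 2D culture.

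Whether members resemble each other beyond the rule was read from the 15 nearest neighbours of each cardiomyocyte, in 30 principal components computed without *TBX3* and *RSPO3*. A member had on average 67.6% members among its neighbours without PD173074, against 23.7% for a double-negative cell and 44.0% for cardiomyocytes at large. In 2D culture the values were 36.6%, 15.1% and 21.2%, and with PD173074 12%, 4.83% and 5.55%. In each group the percentage for members was above that for cardiomyocytes at large. Depth also enters such distances, and its part was not tested. *RSPO3* only cells had 48.0% members among their neighbours without PD173074, and *TBX3* only cells 35.6%. In 2D culture these values were 27.1% and 18.5%, and with PD173074 10.1% and 6.40%. The percentage for *RSPO3* only cells was thus also above that for cardiomyocytes at large in each group.

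Members of cardioids with PD173074 and without PD173074 were then set against each other. Of 8267 genes, 432 were beyond 2-fold in either direction (5.23%), while the double-negative cells of the same groups differed in 58 genes (0.725%). Of the 432 genes, 295 were higher and 137 lower with PD173074. The 1.5-fold net caught 6.19% of genes upward and 3.49% downward. *SHOX2* (73.4 against 0.499 CPM, log2 ratio 7.20), *ALDH1A1* (37.1 against 0.2 CPM, 7.54) and *NR2F1* were higher with PD173074, and so were 9 of 12 measured atrial genes and 4 of 4 measured sinus node markers. *NEFM* (2.62 against 63.2 CPM, -4.59), *JCAD* (14 against 256 CPM, -4.19), *MASP1* (10.5 against 182 CPM, -4.12) and *CRHBP* (3.93 against 51.8 CPM, -3.72) were lower.

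Ventricular genes were lower with PD173074, 6 of 12 measured, with 1 higher. Targets of FGF and ERK signalling pointed the same way: *ETV5* stood at 3.93 against 14.9 CPM (-1.92), *SPRED1* at 38.4 against 77.3 CPM (-1.01) and *CCND1* at 49.8 against 116 CPM (-1.22). With *SPRED2* this makes 4 of 7 lower and none higher (median -1.01). The ratios of these genes in double-negative cells of the same groups are not given here. The part of PD173074 in these differences was not tested. Of 21 immediate early genes 15 were higher and 2 lower with PD173074 (median 1.87). *GABRP*, a GABA receptor subunit gene, had a log2 ratio of 10.55, and beside it stand the stromal and epithelial sums given above. With cells carrying such UMIs left out, 350 genes were beyond 2-fold.

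**Figure D5:**
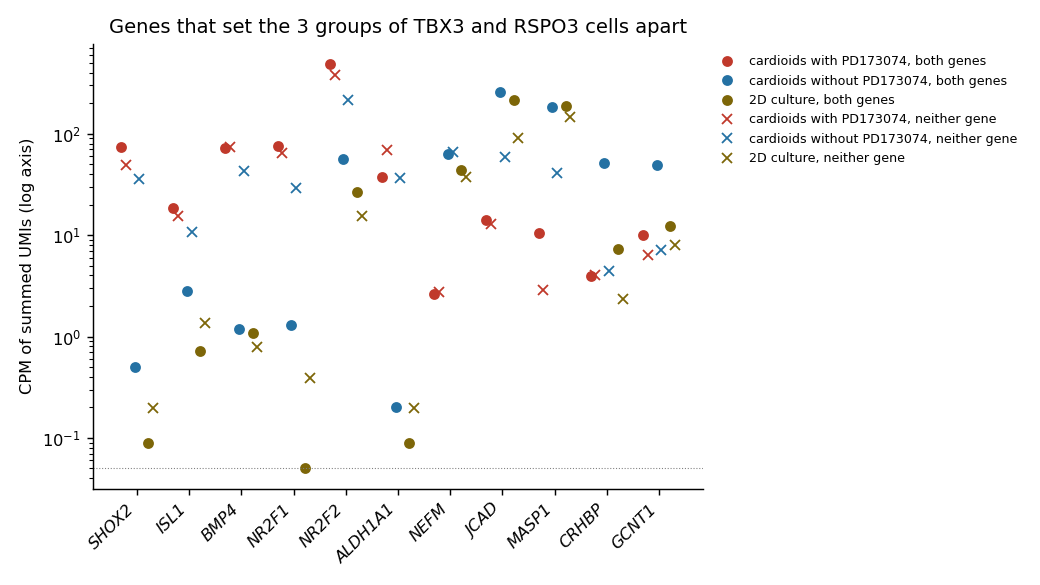
CPM of summed UMIs, on a log axis, of 11 genes in *TBX3* and *RSPO3* cells (circles) and in cardiomyocytes with neither UMI (crosses) of the 3 groups, with a dotted line where a level of 0 is drawn. *SHOX2*, *NR2F1* and *ALDH1A1* lie highest with PD173074, and *NEFM*, *JCAD* and *MASP1* lie lowest there, in members and in double-negative cells alike.

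Members of cardioids without PD173074 and of 2D culture were set against each other in the same way. They differed in 91 of 8019 genes (1.13%), 66 higher and 25 lower without PD173074, and their double-negative cells differed in 136 of 8017 (1.7%). The 1.5-fold net caught 2.22% of genes upward and 1.41% downward. *CRHBP* (51.8 against 7.27 CPM, 2.83), *TENM2* (263 against 63.2 CPM, 2.05), *GCNT1* (49.1 against 12.3 CPM, 2.00), *SFRP1*, a secreted WNT antagonist gene (946 against 240 CPM, 1.98), and *RGS6* (65.9 against 15.4 CPM, 2.09) were higher without PD173074. The matrix genes *ELN* (-3.23), *MGP* (15.1 against 102 CPM, -2.75) and *COL8A1* (-2.24), the regulator *RGS4* (6.89 against 25.3 CPM, -1.88) and *ETV5* (14.9 against 42.6 CPM, -1.52) were lower. *BMP2*, *MSX2* and *HAS2* were within 2-fold of each other in these members, at 731 against 478 CPM, 431 against 321 CPM and 211 against 121 CPM. Members with PD173074 and those of 2D culture differed in 551 genes (6.63%) and their double-negative cells in 500 (6.23%).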

How the data were processed

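Dissociated H9 cells were sequenced with 10x Chromium 3' chemistry, and the authors deposited filtered UMI count matrices of 36601 genes for 11 libraries, for which the submitters' processing notes name the build hg38 and the tool Cell Ranger 7.0.0. Which gene annotation it used is not stated. The first run of each group was analysed, with totals of 37765195 UMIs with PD173074, 23074862 without PD173074 and 46304366 in 2D culture, and the other runs served as alternatives. No counts were normalized by the authors. UMI counts were summed over the cells of a class, scaled to CPM and compared by log2 ratio with exact conditional 95% intervals (scipy 1.17.1, Python 3.11.15), and levels and shares have exact Poisson and Clopper-Pearson intervals. All of them describe counting within 1 sample a group. Cells were thinned only where the text says so, for shares of members, of *TBX3* and *RSPO3*, and of cells with *BMP2*. All other shares of cells use every UMI of a cell and are not corrected for depth. Neighbours came from 2000 variable genes (scikit-learn 1.9.0). Doublets were not removed. edgeR 4.0.16 and DESeq2 1.42.0, in R 4.3.3, supplied other scalings only, and no count test was run. The call rule was tried on simulated summed counts that held counting error only. That trial therefore cannot show how the rule acts under variation between cells or with transcripts of other cell types.

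The members, the 41 gene lists and the marker lists were chosen with earlier results of these data known. Named are the marker genes, a fixed set of 38 genes of canal, node, chamber and WNT signalling, the genes beyond 2-fold in every group, up to 4 genes of each list by the size of the ratio without PD173074, and the 10 highest and lowest between groups of members. Other genes were chosen after their values were seen. Sequences are from RefSeq, where *TBX3*, *BMP2*, *TBX2*, *PTGER3*, *HAS2* and *CADM2* had no entry in the table used. Some genes are not reported here.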

Additional observations from a re-analysis of the deposited data

Results flagged for a closer look

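The third run without PD173074 stood apart from the other 4 runs of its group. Its total was 12266166 UMIs, against 23074862 to 24495291 in the others, and members were 29.4% of its cardiomyocytes, against 44.0% to 45.5%. *RSPO3* in the first run's members was read there at 1595 CPM, the highest of the 5 runs. The gaps to the nearest run were 0.884, 0.904 and 0.974 of the whole range, above the limit of 0.710 for 5 values. Such a limit marks about 1 in 20 groups by chance, and the runs read the same droplets. The report uses the first run.

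A few genes were beyond 2-fold in members in opposite directions in different groups, and the difference between the groups was not tested. *PENK*, which encodes proenkephalin, had log2 ratios of 2.09 with PD173074, -1.47 without PD173074 and 1.31 in 2D culture. Without cells of stromal or epithelial transcripts its ratio without PD173074 was 0.96. *H19*, an imprinted transcript, had 1.37 with PD173074 and -1.67 without PD173074. *NELL1* had 1.36 and -2.93 in these groups. *NR2F2-AS1*, the transcript antisense to *NR2F2*, had -1.50 without PD173074 and 1.96 in 2D culture, and the sources used here do not say whether counting used strand.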

How the results depend on the processing

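No paired analysis was possible because the groups are single samples read in repeat runs, and run numbers pair nothing between groups. The share of members kept its order over the 3 groups (lowest with PD173074, highest without PD173074) under every alternative. With PD173074, without PD173074 and in 2D culture it was 9.13%, 47.9% and 25.1% with 1 or more *RSPO3* UMI, 3.60%, 40.7% and 18.1% with 3 or more, 1.74%, 29.6% and 7.79% with 2 or more *TBX3* UMIs, 0.514%, 21.4% and 6.78% thinned to 2000 UMIs, 2.06%, 38.6% and 17.3% thinned to 4000 UMIs, and 6.46%, 48.4% and 15.6% with *TNNT2* and *MYH6* at 0.5% or more. Run 3 gave 29.4% without PD173074, leaving out barcodes above the 95th percentile of UMIs gave 19.6% in 2D culture, and leaving out cells with stromal or epithelial UMIs (chosen after seeing the data) gave 4.41% with PD173074 and 19.5% in 2D culture.

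Counts of genes beyond 2-fold were 82, 179 and 48 over double-negative cells. With PD173074 they were 37 at matched depth, 37 without the deepest cells, 18 without cells of stromal or epithelial UMIs, 185 with 3 *RSPO3* and 2 *TBX3* UMIs, 166 and 41 at floors of 5 and 50 CPM, and 185 at 1.5-fold. The share of higher genes among them was 84.1%, against 62.2% at matched depth, 59.5% without the deepest cells and 22.2% without cells of stromal or epithelial UMIs. Against all other cardiomyocytes they were 46 without PD173074 (11 higher) and 3 in 2D culture (0 higher). Against double-negative cells without *SHOX2*, *NR2F1*, *NPPA*, *MYL2* or *MYH11* (chosen after seeing the data) they were 96 and 18. At a floor of 50 CPM they were 113 and 30, at 1.5-fold 387 and 152, and at a floor of 5 CPM 74 in 2D culture. Between groups of members a floor of 5 CPM gave 695, 169 and 870 genes, and a floor of 50 CPM gave 49 (without PD173074 over 2D culture) and 351 (with PD173074 over 2D culture).

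In the second run, *MSX2* and *TBX2* in *RSPO3* only cells with PD173074 were 82.1 and 68.9 CPM, *BMP2* and *TBX2* in double-negative cells without PD173074 were 142 and 41.9 CPM, and *TBX2* in 2D culture was 50.01 CPM in double-negative and 68.7 CPM in *TBX3* only cells.

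Among named genes beyond 2-fold in members, log2 ratios changed sign in 16 cases. Of these, 15 came without the cells of stromal or epithelial UMIs, a step that itself removes cells by *COL1A1* and *COL1A2*. Sign changes of named genes within 2-fold were not counted. With PD173074 the stromal median became -0.10, *COL1A1* -0.10, *COL6A3* -0.083, *PRAG1* -0.083, *FN1* -0.53, *COL1A2* -0.95, *GPC3* -2.33, *KCNMA1* -0.67 and *KRT19* -0.71. Without PD173074 *FN1* became -0.068 and *PENK* 0.96. In 2D culture the stromal median became -0.20, *COL8A1* -1.12, *ELN* -2.29, *FN1* -0.012, *FBN1* -0.031 and *COL1A2* -0.30. At matched depth *FN1* became -1.71 without PD173074. The cause was not tested. Members with PD173074 are 188 cells, and their summed counts hold fewer UMIs than those of members in the other groups.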
